A study of Mus musculus with 9 samples.

Results

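The genes examined were Atf3 and Batf3, which lie close together on mouse chromosome 1, and the members were the accessibility peaks assigned to them. A peak belonged to a gene when its centre lay inside it, or otherwise when the nearest end of a protein-coding gene within 50 kb was that gene's. This gave 16 of the 75936 peaks in the deposited table, 12 for Atf3 and 4 for Batf3. The pair was selected on accessibility differences of its peaks between groups of these same libraries. Which groups were compared for that choice is not stated. Every comparison, of either hairpin with the control and between the hairpins, is therefore treated as used in it. The differences below are therefore a description, and the peaks called by the test across all peaks are given beside the share called among all peaks, with nothing read from them.

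The study made 9 ATAC-seq libraries, whose reads mark open DNA that a transposase can cut, of D2A1-d, a murine breast carcinoma line. Untreated cells carried a non-targeting control hairpin (NTC, wild-type by label, n = 3), or one of the hairpins shMed1 #2 (n = 3) and shMed1 #4 (n = 3), whose genotype is given as Med1 knockdown. Med1 encodes a subunit of Mediator, the complex that connects transcription factors with RNA polymerase II; the series title speaks of MED4, another subunit. The labels name biological replicates without describing the cultures, and all 3 groups are derivatives of 1 cell line, so the spread may be partly technical.

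Atf3 encodes a bZIP transcription factor of the ATF/CREB family that is induced early by many kinds of cell stress, including the integrated stress response. It binds DNA as a homodimer or with partners such as the JUN proteins, and it can repress its own promoter. Batf3 encodes a small bZIP protein of the BATF group that lacks an activation domain of its own, pairs with JUN proteins and is best known for its role in the development of cross-presenting dendritic cells.

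In GRCm38, Batf3 (gene 381319) lies on the plus strand at chromosome 1, 191098414 to 191108943, and Atf3 (gene 11910) on the minus strand at 191170296 to 191183333. The genes point towards each other, with 61.4 kb between their 3′ ends and 84.9 kb between their starts. The protein-coding gene Fam71a lies in that gap, at 191162584 to 191164817. The 250 bases before each start are printed from RefSeq (GRCm38.p6) because the start peaks of both genes differed between groups. Capitals mark the matches of the motifs searched on both strands, which were TGANTCA (AP-1), TGACGTCA (the cAMP response element), TGATGNAA (the C/EBP-ATF response element), TTACGTCA (a variant cAMP response element) and CACGTG (E-box). The last pair of motifs was chosen after the sequences had been read, and the matches do not overlap.
Atf3, chr1:191183334-191183583, minus strand: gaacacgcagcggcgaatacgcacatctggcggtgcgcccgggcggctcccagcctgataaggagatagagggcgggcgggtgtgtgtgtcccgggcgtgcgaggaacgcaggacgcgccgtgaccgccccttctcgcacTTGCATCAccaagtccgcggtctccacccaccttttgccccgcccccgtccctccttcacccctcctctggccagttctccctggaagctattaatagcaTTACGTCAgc
Batf3, chr1:191098164-191098413, plus strand: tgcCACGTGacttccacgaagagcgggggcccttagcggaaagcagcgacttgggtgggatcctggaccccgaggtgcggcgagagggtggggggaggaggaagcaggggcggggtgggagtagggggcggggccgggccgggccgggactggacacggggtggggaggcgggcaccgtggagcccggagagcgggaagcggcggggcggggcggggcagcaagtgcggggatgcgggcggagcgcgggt

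The Atf3 promoter held TTGCATCA at bases -110 to -103, the reverse complement form of the C/EBP-ATF motif, and TTACGTCA at bases -10 to -3, counted back from the start. Among 32851 promoter windows of the same length, 3.45% held the first motif and 0.448% the second. The Batf3 promoter held CACGTG at bases -247 to -242, a motif found in 6.02% of windows. Neither window held TGANTCA or TGACGTCA, which were present in 6.75% and 1.55% of windows. Both promoters were rich in G and C, at 65.2% for Atf3 and 76% for Batf3 against a median of 52.4%, with 24 and 27 CpG sites against a median of 6. The Batf3 start peak covered all 250 bases, whereas the Atf3 start peak reached 37 bases past the start and so covered TTACGTCA but not TTGCATCA. A match is a string of letters and does not show that a factor was bound.

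Values are the authors' normalized counts, that is, reads in a peak divided by a size factor of the library. Peaks were 501 bases long as end minus start, and coordinates are printed as deposited, without knowing whether they begin at 0 or 1. The libraries held 34.8 to 53.7 M reads in peaks, and the 16 peaks held from 43 to 2817 reads in a library. In these libraries 3 of 8 marker genes of a mammary carcinoma line had a peak within 1 kb of a gene end. These were Vim at 4576, Krt18 at 209 and Krt14 at 126 normalized counts in NTC, while Epcam, Krt8, Krt19, Cdh1 and Krt5 had none. Of 5 dendritic cell markers, Xcr1 (623, a peak assigned to another gene) and Clec9a (95.5) had one, and Flt3, Zbtb46 and Itgax did not. Such peaks were also present at 2 of 5 blood, 1 of 3 endothelial and 0 of 2 adipocyte markers. Med1 hairpins act on the transcript, so accessibility is no check of the knockdown.

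Of the 6 peaks upstream of Atf3, 3 passed the threshold given below as higher with both hairpins, beside 12.3% of all peaks. They lay at 6.7, 38.8 and 47.3 kb. Both Atf3 start peaks were lower than in NTC with shMed1 #2 and passed, whereas with shMed1 #4 they did not pass. Of the 4 weak peaks in the body and at the 3′ end, all passed as higher with #4 and 1 with #2. In #4 against #2, 2 of them passed as higher, beside 8.48% of all peaks. Not all of these calls held when a library was left out, as given below. Log2 fold changes are of the normalized count plus 1, with limma's SE and n = 3 per group, and a peak is said to have passed when its two-sided adjusted p across all peaks was under 0.05. All 16 peaks passed the filter on low values. With shMed1 #2, 8 of 16 peaks passed (6 higher and 2 lower), beside 43.1% of all peaks (23.6% higher and 19.5% lower). With shMed1 #4, 8 passed (7 higher and 1 lower), beside 29.4% of all peaks (17.3% higher and 12.1% lower). With libraries scaled to equal totals, the split over all 75930 peaks turned to 13498 higher and 22132 lower with #2, and 9329 higher and 14938 lower with #4. Under that scaling, 4 of the 16 peaks were higher and 3 lower with #2, and 6 were higher and 1 lower with #4. These comparisons share the NTC libraries. The median log2 fold change of the 12 Atf3 peaks was 0.29 with #2 and 0.31 with #4, where the medians of all peaks were -0.02 and -0.01.

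**Figure D1:**
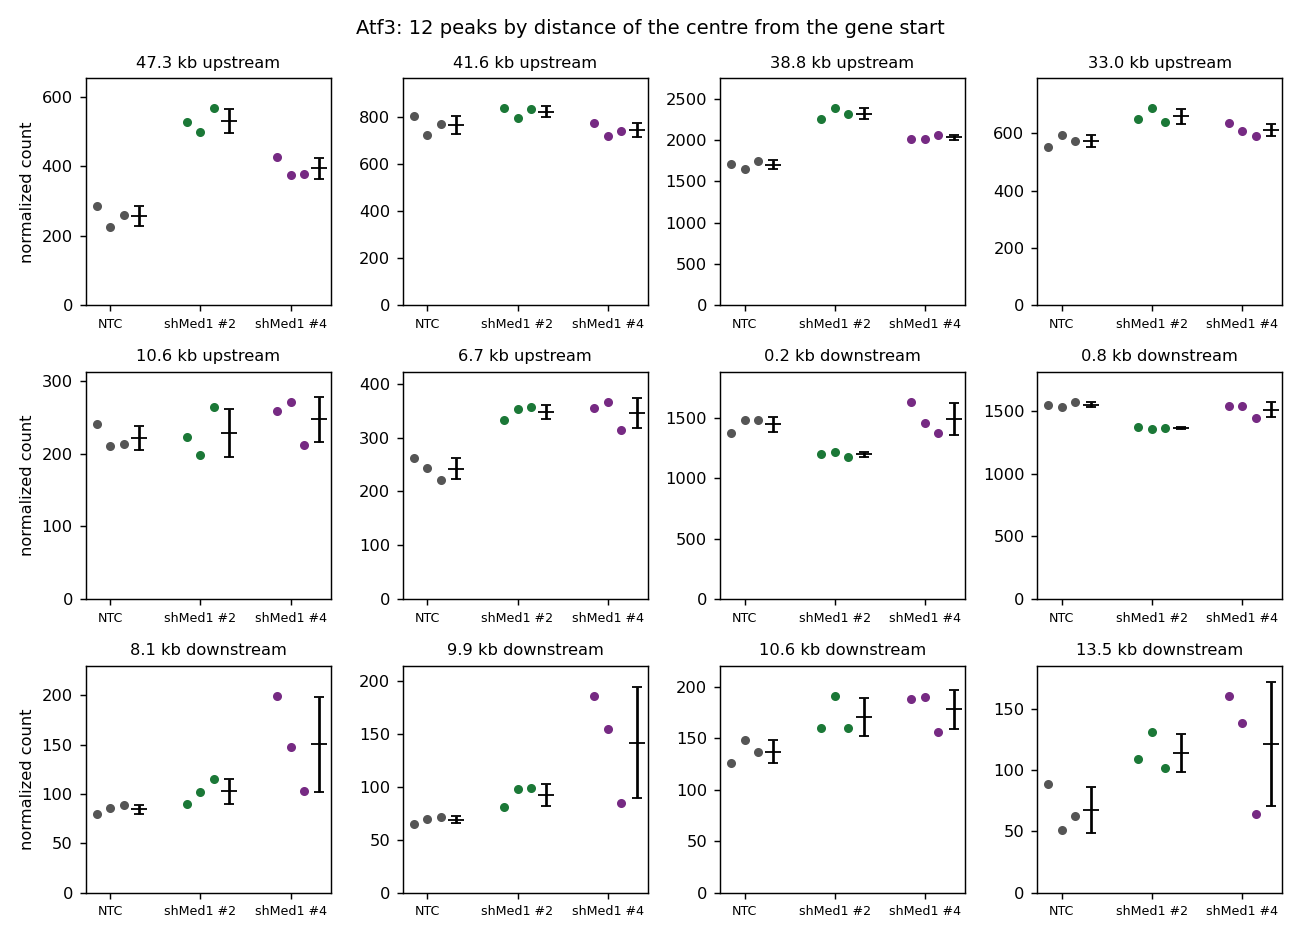
Normalized counts (y axis, from 0) of the 12 Atf3 peaks in each of the 9 libraries, with 1 panel per peak ordered by the distance of its centre from the gene start. Points are libraries, and the black marks are the mean and SD of each group (n = 3). The 3 shMed1 #2 libraries sit below all NTC libraries at the start peaks, and libraries of both hairpins sit above NTC in the panels at 47.3, 38.8 and 6.7 kb upstream.

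Atf3 had a pair of neighbouring peaks at its start, among the stronger peaks of these cells: 11.5% and 10.2% of all peaks had a higher NTC mean. The peak over the start itself (chromosome 1, 191182869 to 191183370) held 1373, 1478 and 1479 normalized counts in NTC, 1196, 1214 and 1176 in #2, and 1631, 1458 and 1373 in #4. All #2 libraries were below all NTC and all #4 libraries, while NTC and #4 overlapped. Its log2 fold change was -0.27 ± 0.06 with #2, which passed, and 0.04 ± 0.06 with #4, which did not. With equal totals these were -0.36 and -0.03, and with quantile scaling -0.35 and -0.01, with the same calls. The difference between the hairpins, #4 against #2, was 0.31 ± 0.06 and also passed.

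The second start peak lay inside the gene, 0.76 kb downstream of the start (191182320 to 191182821). It held 1548, 1533 and 1574 in NTC, 1376, 1357 and 1365 in #2, and 1544, 1544 and 1443 in #4. The #2 libraries were again the lowest without overlap, and the log2 fold change of -0.18 ± 0.05 passed, against -0.04 ± 0.05 with #4. With equal totals these were -0.27 and -0.11, and with quantile scaling -0.26 and -0.09, with the same calls. The difference of 0.14 ± 0.05 between the hairpins passed, but only narrowly: it did not pass without any one of 8 libraries, all except shMed1 #4 replicate 3, with the replicate block or with only both hairpin groups in the fit.

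Upstream of Atf3, 6 peaks lay between 6.7 and 47.3 kb from the start. The peak with the largest fold change of the 6 was the most distant one (191230427 to 191230928), at 285, 227 and 259 in NTC, 529, 499 and 568 in #2, and 428, 375 and 378 in #4. No groups overlapped, and #4 stood between NTC and #2. Accessibility rose 2.07-fold with #2 (log2 1.05 ± 0.09) and 1.53-fold with #4 (0.62 ± 0.09), and was lower in #4 than in #2 by a log2 difference of -0.43 ± 0.09, all of which passed. Among all peaks tested, 0.265% had a larger log2 fold change with #2 and 2.07% with #4.

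The strongest Atf3 peak lay 38.8 kb upstream (191221910 to 191222411) and was above both start peaks. It held 1706, 1645 and 1753 in NTC, 2259, 2390 and 2313 in #2, and 2018, 2014 and 2065 in #4. The order was the same as at the most distant peak, with NTC lowest, #4 between and #2 highest, and no overlap. It rose by a log2 value of 0.45 ± 0.05 with #2 and 0.26 ± 0.05 with #4, and the difference of -0.19 ± 0.05 between the hairpins passed too. With equal totals the rises were 0.36 and 0.19, and with quantile scaling 0.37 and 0.19, and all passed.

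At the peak 6.7 kb upstream (191189791 to 191190292) the hairpins were close in level. Values were 261, 243 and 222 in NTC, 332, 352 and 357 in #2, and 355, 367 and 315 in #4. All libraries of either hairpin were above all NTC libraries, and those of the hairpins overlapped. The peak rose by 0.52 ± 0.10 with #2 and 0.51 ± 0.10 with #4, and the difference between the hairpins was -0.01 ± 0.10.

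The remaining upstream peaks differed less. At 33.0 kb (191216080 to 191216581) the means were 574 ± 21.1 in NTC, 660 ± 25.5 in #2 and 612 ± 22.2 in #4 (SD, n = 3). The log2 fold change of 0.20 ± 0.07 with #2 passed, but was 0.12 with equal totals and 0.10 with quantile scaling, where it did not pass, nor without NTC replicate 1, NTC replicate 3 or shMed1 #2 replicate 2 (0.18, 0.20 and 0.17). The peak at 41.6 kb (191224681 to 191225182), whose centre lies in the noncoding gene D730003I15Rik, was at 764 ± 39.5, 821 ± 24.0 and 743 ± 29.0 (SD, n = 3). The peak at 10.6 kb (191193729 to 191194230) was at 222 ± 16.7, 229 ± 33.5 and 248 ± 31.1 (SD, n = 3). Neither passed with either hairpin, and their log2 fold changes lay between -0.04 and 0.15. Upstream peaks passing were thus 4 of 6 with #2 and 3 of 6 with #4, all higher, beside 23.6% and 17.3% of all peaks higher.

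**Figure D2:**
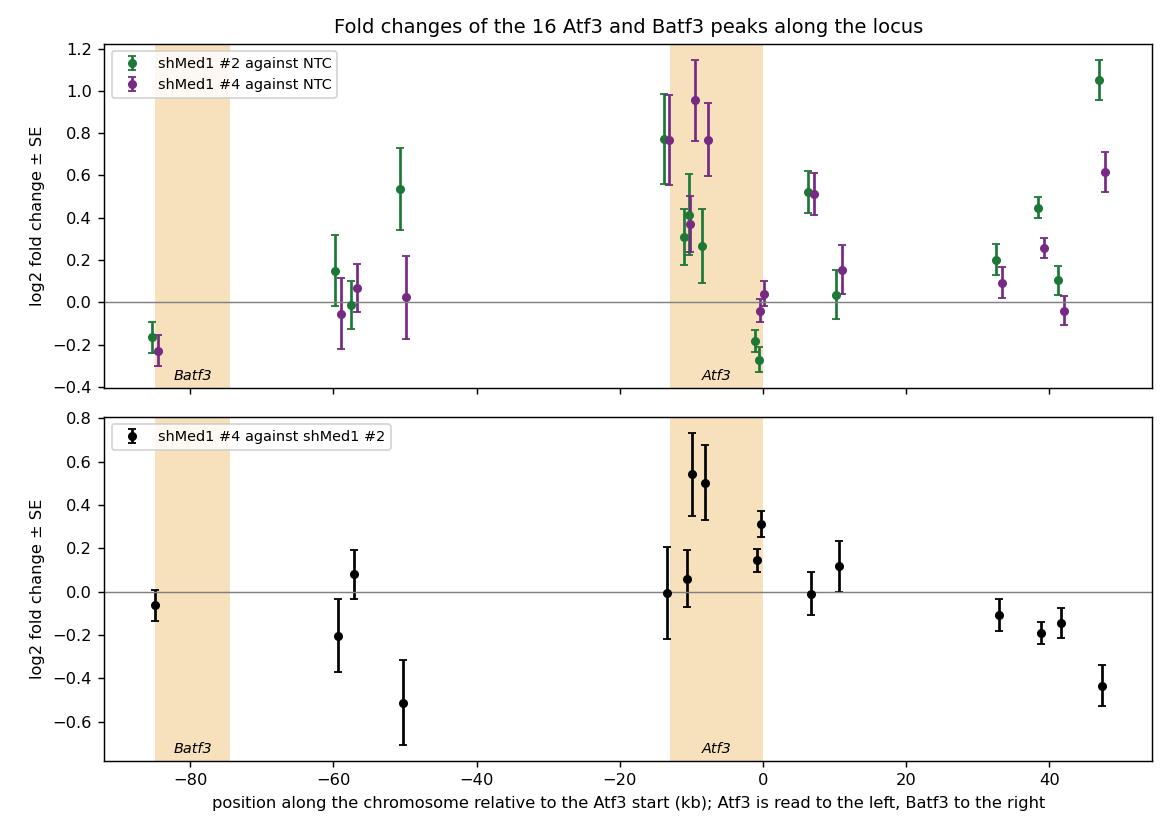
Log2 fold change with its SE (y axis) of the 16 peaks against position relative to the Atf3 start in kb (x axis), with the gene bodies shaded and the hairpins offset slightly to either side of each position in the upper panel. The upper panel shows each hairpin against NTC and the lower panel #4 against #2. With #2 the points dip to -0.27 at the Atf3 start and reach 1.05 at the far right, and those with #4 are highest within the Atf3 body, at 0.96.

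The body and 3′ end of Atf3 held 4 weak peaks, between 62.4% and 87.0% of all peaks being stronger in NTC. At 9.9 kb downstream of the start (191173214 to 191173715) values were 65.4, 70.1 and 71.7 in NTC, 80.8, 97.9 and 99.4 in #2, and 186, 155 and 84.6 in #4. Libraries of both hairpins were above all NTC libraries, and #4 replicate 3 lay within the range of #2. The log2 fold change with #4 was 0.96 ± 0.19, which passed, against 0.41 ± 0.19 with #2, which did not. The difference of 0.54 ± 0.19 between the hairpins passed, was 0.31 without shMed1 #4 replicate 1 and 0.87 without shMed1 #4 replicate 3. It did not pass in the first case, nor without shMed1 #4 replicate 2 (0.44), shMed1 #2 replicate 1 (0.45) or shMed1 #2 replicate 2 (0.58).

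The peak at 8.1 kb (191174947 to 191175448) showed the same arrangement. It held 79.7, 85.7 and 88.8 in NTC, 89.6, 103 and 116 in #2, and 199.7, 148 and 103 in #4. NTC was lowest without overlap, and #4 replicate 3 was again within the #2 range. It rose by 0.77 ± 0.17 with #4 and was at 0.27 ± 0.17 with #2. The difference between the hairpins, 0.50 ± 0.17, passed, but was 0.27 and did not pass without shMed1 #4 replicate 1, and did not pass without shMed1 #4 replicate 2 (0.49) or shMed1 #2 replicate 1 (0.41) or 2 (0.51).

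Just past the 3′ end of Atf3, 13.5 kb from the start (191169622 to 191170123), values were 88.6, 51.6 and 62.6 in NTC, 109, 131 and 102 in #2, and 161, 139 and 64.5 in #4. Libraries of #2 were above all NTC libraries, whereas #4 replicate 3 fell among them. The log2 fold changes of 0.77 ± 0.21 with either hairpin passed, and the one with #4 was 1.17 without shMed1 #4 replicate 3. It did not pass without shMed1 #4 replicate 1 (0.52), shMed1 #4 replicate 2 (0.62) or NTC replicate 2 (0.60).

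The last body peak, at 10.6 kb (191172449 to 191172950), held 126, 148 and 136 in NTC, 160, 191 and 160 in #2, and 187, 190 and 156 in #4. Both hairpins were above NTC in every library. The log2 fold change was 0.37 ± 0.13 with #4, which passed, and 0.31 ± 0.13 with #2, which did not. The value with #4 did not pass with equal totals (0.30) or without NTC replicate 1 (0.31), NTC replicate 3 (0.37), shMed1 #4 replicate 1 (0.33) or shMed1 #4 replicate 2 (0.32).

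Library #4 replicate 3 was the lowest of its group at all 4 of these peaks and at 9 of the 12 Atf3 peaks, while it was the lowest of its group at 34.4% of all peaks tested. Its part in the differences within the body was not tested beyond leaving it out. Without it the 4 peaks had log2 fold changes of 1.17, 0.46, 1.29 and 1.01 with #4, from the 3′ end towards the start.

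The signal summed over the 12 Atf3 peaks was 7128, 7011 and 7201 in NTC, 7841, 8015 and 7994 in #2, and 8378, 7988 and 7526 in #4. Every hairpin library was above every NTC library, and the group means were 11.76% above NTC with #2 and 11.96% with #4. The share of all genes with sums separated in this way was not computed. The totals over all peaks were also higher with the hairpins, at 43.1 to 44.2 M normalized counts against 41.2 to 41.5 M in NTC. With equal totals, an alternative added after the data were seen, the Atf3 sums were 5.28% above NTC with #2 and 6.66% with #4. The lowest hairpin library, #4 replicate 3, was then at 7495.7, barely above the highest NTC library at 7479.5. The sums of the hairpin groups were close, at 7950 ± 94.9 and 7964 ± 427 (SD, n = 3), but they were made up differently. The start peaks held 41.0, 42.9 and 42.4% of the Atf3 signal in NTC, 32.8, 32.1 and 31.8% in #2, and 37.9, 37.6 and 37.4% in #4. These ranges did not overlap, but such shares were not computed for other genes. A share also depends on the other parts: the mean start sum was 2995 in NTC and 2997 in #4, although its share was lower in #4. A share within a library does not depend on a factor that scales the whole library. Quantile scaling is not such a factor, and the shares were not computed with it.

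The upstream peaks held 52.9 ± 1.01% of the Atf3 signal in NTC, 61.7 ± 0.439% in #2 and 55.0 ± 1.95% in #4 (SD, n = 3). The #2 libraries were above all others, and NTC and #4 overlapped. The body and 3′ end held 5.04 ± 0.0434% in NTC, 6.03 ± 0.464% in #2 and 7.37 ± 1.73% in #4 (SD, n = 3). Every hairpin library was above NTC there, and #4 spread most, from 5.43% in replicate 3 to 8.77% in replicate 1. In summed counts the upstream part was 30.5% higher than NTC with #2 and 16.3% with #4, and the body part 33.9% and 65.1%. With equal totals these were 23.0% and 10.9% upstream, and 26.2% and 57.1% in the body. The start part was 2995 ± 66.9 in NTC, 2561 ± 17.2 with #2, a difference of -14.5%, and 2997 ± 179 with #4 (SD, n = 3). With equal totals the start differed from NTC by -19.4% with #2 and -4.65% with #4.

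**Figure D3:**
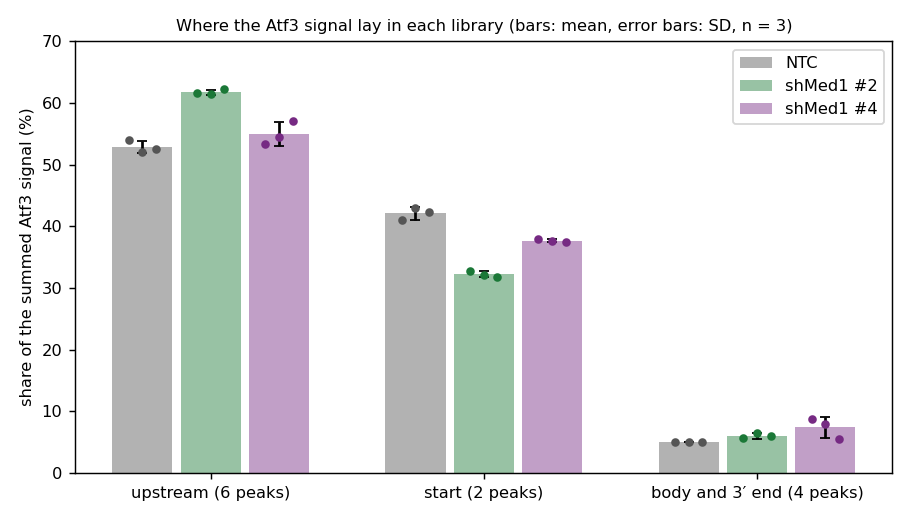
Share of the summed Atf3 signal (y axis, %) in the upstream, start, and body and 3′ end peaks for each group; bars are means, error bars SD (n = 3) and points libraries. The start share is 41.0 to 42.9% in NTC, 37.4 to 37.9% in #4 and 31.8 to 32.8% in #2, with no overlap.

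Batf3 had 4 peaks, a strong one at its start and 3 weaker ones beyond its 3′ end, on the side towards Atf3. The start peak (191098162 to 191098663) held 752, 725 and 720 in NTC, 657, 676 and 626 in #2, and 646, 586 and 644 in #4. All 6 hairpin libraries were below the NTC libraries, and the hairpins overlapped. The log2 fold change was -0.17 ± 0.07 with #2, which did not pass, and -0.23 ± 0.07 with #4, which did. With equal totals and quantile scaling the #2 value was -0.25 and -0.27 and passed. The #4 value did not pass without NTC replicate 1 (-0.21) or shMed1 #4 replicate 2 (-0.18). The difference between the hairpins was -0.06 ± 0.07.

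At the most distant Batf3 peak, 34.6 kb downstream of its start (191132793 to 191133294), values were 73.4, 62.7 and 62.6 in NTC, 83.5, 93.3 and 114 in #2, and 78.9, 53.8 and 71.2 in #4. The #2 libraries were above all others, and NTC and #4 overlapped. The log2 fold change with #2, 0.54 ± 0.20, passed, while that with #4 was 0.02 ± 0.20. The #2 value did not pass with equal totals (0.45) or without NTC replicate 2 (0.50), NTC replicate 3 (0.50) or shMed1 #2 replicate 3 (0.41). The difference of -0.51 ± 0.20 between the hairpins did not pass, although it did with quantile scaling (-0.54) and without shMed1 #2 replicate 1 (-0.61) or shMed1 #4 replicate 1 (-0.63).

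The other Batf3 peaks passed in no contrast. The peak at 27.8 kb (191125946 to 191126447) held 195, 219 and 210 in NTC, 206, 197 and 216 in #2, and 203, 214 and 238 in #4. The peak at 25.6 kb (191123743 to 191124244), in the noncoding gene Gm46178, held 93.1, 100.5 and 85.8 in NTC, 112, 88.7 and 111 in #2, and 91.2, 85.1 and 92.4 in #4. All groups overlapped at both, and log2 fold changes against NTC ran from -0.05 to 0.15. Those of #4 against #2 were 0.08 at 27.8 kb and -0.20 at 25.6 kb. The signal summed over Batf3 was 1100 ± 19.2 in NTC, 1060 ± 6.06 in #2 and 1001 ± 56.0 in #4 (SD, n = 3), with every hairpin library below every NTC library. The share of all genes separated in this way was not computed here either. The differences from NTC were -3.65% with #2 and -8.98% with #4, and -9.24% and -13.2% with equal totals.

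**Figure D4:**
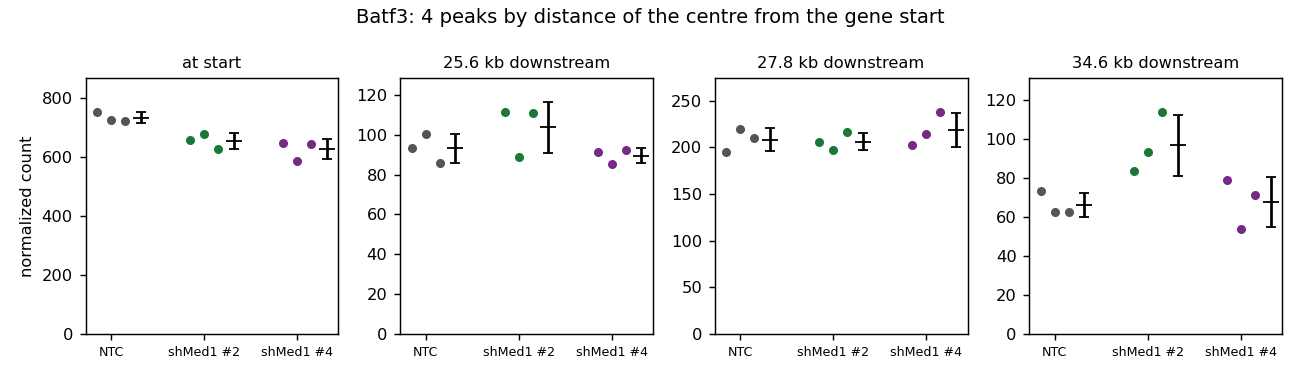
Normalized counts (y axis, from 0) of the 4 Batf3 peaks in the 9 libraries, drawn as points with group mean and SD (n = 3). The start panel shows NTC at 720 to 752 above both hairpins, and the panel at 34.6 kb shows #2 at 83.5 to 114 above NTC and #4.

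Between the hairpins, #4 against #2, 6 of 16 peaks passed (4 higher and 2 lower), beside 21.5% of all peaks (8.48% higher and 13.0% lower). All 6 belonged to Atf3, with the 2 start peaks and the body peaks at 8.1 and 9.9 kb higher in #4, and the 2 peaks at 38.8 and 47.3 kb upstream lower. Libraries of the hairpins did not overlap at 7 peaks, with 2 above and 5 below, beside 15.6% and 18.0% of all peaks. Against NTC without overlap, 9 peaks were above and 3 below with #2 (27.2% and 24.6% of all peaks), and 6 were above and 1 below with #4 (22.7% and 19.7%). 4 peaks passed as higher with both hairpins, at 13.5 kb downstream and at 6.7, 38.8 and 47.3 kb upstream of Atf3. 4 passed with #2 alone, 4 with #4 alone and 4 with neither. Among all peaks, 12.3% passed as higher and 7.78% as lower with both hairpins, 22.3% passed with #2 alone, 8.54% with #4 alone and 48.4% with neither. The comparisons share the NTC libraries, and nothing is read from these counts.

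The limits of the assignment were as follows. The most distant Atf3 peak lay 47.3 kb from the gene, within the limit of 50 kb. The next peak outward, 71.3 kb away (191254382 to 191254883), was assigned to no gene and was at 587 normalized counts in NTC, with log2 fold changes of 0.22 ± 0.09 with #2, which did not pass, and 0.33 ± 0.09 with #4, which did. Between the genes, 2 peaks were nearer to Fam71a than to either gene. The first, 29.1 kb from Atf3 and 32.3 kb from Batf3 (191140953 to 191141454), had log2 fold changes of -0.30 ± 0.17 and 0.38 ± 0.17, neither of which passed. Its difference between the hairpins, #4 against #2, was 0.68 ± 0.17 and passed as higher, a larger difference than at any of the 16 peaks. This weak peak held 94.0, 105 and 94.9 in NTC, 69.4, 87.5 and 82.9 in #2, and 114, 106 and 172 in #4. No value with a library left out is given for it. The assignment by distance does not show which gene a peak acts on.

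The 11 other protein-coding genes with an end within 250 kb held 57 peaks, of which 10 were higher and 4 lower with #2, and 7 higher and 2 lower with #4. Among all peaks, 23.6% were higher and 19.5% lower with #2, and 17.3% and 12.1% with #4. Their median log2 fold changes were -0.01 and 0.03. Nenf, the next gene beyond the Atf3 start, had 4 higher and 1 lower of 14 peaks with #2 and 3 higher with #4. Nsl1, the neighbour of Batf3, had 1 higher and 1 lower of 6 with #2 and 2 lower with #4.

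By summed signal, genes with at least 3 peaks were ranked by the root mean square difference of their log2 levels, relative to the NTC mean, from those of Atf3 or Batf3 over the 9 libraries. Of 8719 genes, Phc2, Sap130, Pofut2, Prss56 and Ppm1b were nearest to Atf3, at 0.0241 to 0.0282, against a median of 0.153. Nearest to Batf3 were Blmh, Fam81a, Terf2, 6430550D23Rik and Rasgef1c, at 0.0331 to 0.0419, against a median of 0.155. Atf3 and Batf3 differed from each other by 0.221, more than the median gene differed from either.

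Other genes of the ATF3 and BATF3 pathway gave the following counts, to be read beside 23.6% of all peaks higher and 19.5% lower with #2, and 17.3% higher and 12.1% lower with #4. The peak named from each list was the one with the smallest adjusted p in either hairpin contrast. Its small p was thus fixed by that choice. Of 63 peaks of AP-1 partners, the JUN and FOS proteins and Jdp2, 27 were higher and 10 lower with #2, and 19 higher and 5 lower with #4, with medians of 0.13 and 0.07. A peak near Fos (chromosome 12, 85497553 to 85498054) had a mean of 1845 ± 61.9 in NTC, 2903 ± 141 with #2 and 2356 ± 174 with #4 (n = 3, SD). Its log2 fold changes were 0.65 ± 0.05 (limma, adjusted p = 4.59e-15) and 0.35 ± 0.05 (adjusted p = 3.35e-07). Of 65 peaks of other ATF, CREB and BATF genes, 15 were higher and 9 lower with #2, and 9 higher and 5 lower with #4. The medians were -0.03 and 0.03. A peak near Atf6b, which encodes a sensor of the unfolded protein response (chromosome 17, 34655415 to 34655916), went from 5569 ± 303 to 7283 ± 426 and 7574 ± 208 (SD, n = 3). Its log2 fold changes were 0.39 ± 0.04 (limma, adjusted p = 5.58e-12) and 0.44 ± 0.04 (adjusted p = 4.34e-13).

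Genes of stress signalling had 39 peaks. The list held the eIF2alpha kinases, p53, stress MAP kinases with their activating kinases, Egr1, Ddit3 and Ppp1r15a. Of the 39 peaks, 7 were higher and 12 lower with #2, and 3 higher and 6 lower with #4. Their medians were -0.13 and -0.07. The peak of Eif2ak4, which encodes the amino acid sensor GCN2 (chromosome 2, 118388397 to 118388898), fell from 2297 ± 141 to 1683 ± 95.6 and 1825 ± 19.6 (SD, n = 3). Its log2 fold changes were -0.45 ± 0.05 (limma, adjusted p = 9.44e-10) and -0.33 ± 0.05 (adjusted p = 2.34e-06). The last list, of Irf4, Irf8, Id2, Nfil3 and Zeb2, had 35 peaks. Of these, 12 were higher and 7 lower with #2, and 7 higher and 4 lower with #4, with medians of -0.02 and -0.02. A peak in Zeb2, a zinc finger repressor (chromosome 2, 45049263 to 45049764), went from 316 ± 20.0 to 575 ± 50.8 and 408 ± 37.7 (SD, n = 3). Its log2 fold changes were 0.86 ± 0.09 (limma, adjusted p = 5.99e-11) and 0.37 ± 0.09 (adjusted p = 0.00162). Atf4, Ddit3, Eif2ak2 and Irf4, which stood on these lists, had no peak assigned.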

How the data were processed

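The deposited table holds a signal per peak that the authors named DESeq2-normalized counts. Per the submitters' processing notes, Trim Galore, BWA, MACS2 and featureCounts from Subread were used with mm10 (GRCm38). For versions, duplicate removal, peak merging and the transposase offset, nothing was given in the sources used here. The header stood 1 field left of its values, so each name was read with the value to its right. Within 0.01, 100% of the values of a library were multiples of 1 step. The size factors (0.799 to 1.22) and reads this gives were used to describe depth only.

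Peaks were assigned to protein-coding genes of RefSeq GRCm38.p6. Log2 of the value plus 1, for the 75930 peaks with a mean of at least 10, was fitted with limma 3.58.1 (trend, R 4.3.3) with 3 group means and no replicate block, and p-values were adjusted by Benjamini-Hochberg over all peaks. The fit was tested on simulated data. All peaks of both genes are named. The genes named as alike and the pathway peaks followed rules on distance and on the smallest adjusted p per list. The members and lists were chosen with earlier results of these data known.

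Alternatives were other pseudocounts (0.5 and 8), filters (none and a mean of 50), equal totals, quantile scaling, the replicate block, robust variances, only the 2 groups of a contrast, assignment by nearest gene end, and leaving out each library.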

Additional observations from a re-analysis of the deposited data

How the results depend on the processing

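Over 18 alternatives to the fit, 864 fold changes of the 16 peaks were recomputed. Of those that had passed, 0 changed sign, 37 no longer passed, and 11 that had not passed now did. Of the 22 passing values, 6 of 8 with #2, 5 of 8 with #4 and 3 of 6 between the hairpins passed under all 18 alternatives. The counts of passing peaks ran from 6 to 10 with #2, from 5 to 8 with #4 and from 3 to 6 between the hairpins when 1 library was left out. The lowest of these were 5 with #4 without shMed1 #4 replicate 2, and 3 between the hairpins without shMed1 #2 replicate 2 or shMed1 #4 replicate 2. With the replicate block the counts were 8, 8 and 5, so the block ended 1 call, that of the second Atf3 start peak between the hairpins. No pairing by number was seen over all peaks, where deviations of same-numbered libraries correlated at -0.0843 to 0.0335. These correlations cannot show whether same-numbered libraries shared a culture or preparation, which the labels do not say. The median of all peaks, -0.02 with #2 and -0.01 with #4, became -0.10 and -0.08 with equal totals. Of the 16 peaks, 12 had positive fold changes with each hairpin, and 11 with #2 and 9 with #4 under equal totals, so signs of small values depend on the scaling. Assigning peaks by nearest gene end gave the same counts for the pair. The SE was 0.05 to 0.06 at the Atf3 start peaks and 0.13 to 0.21 at the weak body peaks, so a difference such as the -0.18 of the second start peak was not detectable in the body.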
